A study of Danio rerio with 10 samples.

Results

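The comparison described here set islet2a morphants against wildtype zebrafish embryos, and its members were 7 of the 10 arrays of the study, chosen by their labels alone. The 3 morphant arrays measured wildtype embryos injected with a translation-blocking morpholino against islet2a. The 4 control arrays joined 2 of uninjected wildtype embryos (titled WT_control, with source "Uninjected embryos") and 2 of homozygous wildtype siblings of a TALEN-made islet2a mutant line (titled mock_control, with source "Sibling homozygous wildtype embryos"). The other 3 arrays measured homozygous islet2a mutants and entered only the estimate of the spread and side-by-side values. Each array (GeneChip Zebrafish Gene 1.0 ST) held RNA from a pool of whole embryos collected at 2 dpf, that is 48 hpf. A morpholino is a synthetic antisense oligomer, and one that blocks translation leaves the mRNA in place, so the level of isl2a RNA is no check of the knockdown. No array measured embryos injected with a control morpholino (0 arrays), so what injection does and what loss of Islet2a protein does cannot be told apart in this comparison. RNA came from whole embryos, so fewer cells of a type and less RNA per cell cannot be told apart either. Neither labels nor methods tell if replicate pools were taken from different clutches, so the p-values measure no more than the spread between pools.

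Islet2a is a LIM-homeodomain transcription factor of the Islet family, expressed in the CaP primary motor neuron, in Rohon-Beard sensory neurons and in ventrally projecting secondary motor neurons. The family helps to set motor neuron identity and axon routes. Zebrafish embryos injected with morpholinos are also known to raise p53 targets and innate immune genes.

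The deposited values were log2 signals whose medians differed between arrays by less than the spread of a typical probe set. Correlated over probe sets, as a description with no replicates behind it, a morphant and a control array had a Pearson's r of 0.976 to 0.986 (12 pairs), and arrays within a group 0.983 to 0.992 (9 pairs). On the first principal component of the 7 arrays, which held 35.7% of the variance, the morphant arrays lay at 38.4 to 52.2 and the control arrays at -61.8 to -17.3. Markers of the tissues of a whole embryo were present: 22 of 23 neuron genes, 55 of 65 skeletal sarcomere genes and 26 of 26 erythrocyte genes averaged above 4.95, the median of all values, against 4 of 23 exocrine pancreas genes.

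More probe sets were higher than lower in morphants. Of 75212 probe sets, 615 (0.818%) were called, which required an adjusted p below 0.05 in limma and 2-fold or more. In morphants 504 of these were higher (0.670% of all probe sets) and 111 were lower (0.148%). At least 4-fold changes were counted for 53 probe sets that were higher and 4 that were lower. The median change over all probe sets was -0.024 on the log2 scale, on arrays whose distributions the normalization had already made alike. The 615 called probe sets included 613 whose 3 morphant values lay outside the 4 control values, a separation that 17.8% of all probe sets showed. For 590 of the 615 the morphant values also lay outside the mutants, that is outside all 7 other arrays. The share of all probe sets that did so was not counted, and the calls already used 4 of these 7 arrays. A single gene symbol was attached to 242 called probe sets, and these named 184 genes that were higher and 48 that were lower. The other 373 called probe sets (60.7%, against 72.3% of all probe sets) had no single symbol and are not named here.

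**Figure D1:**
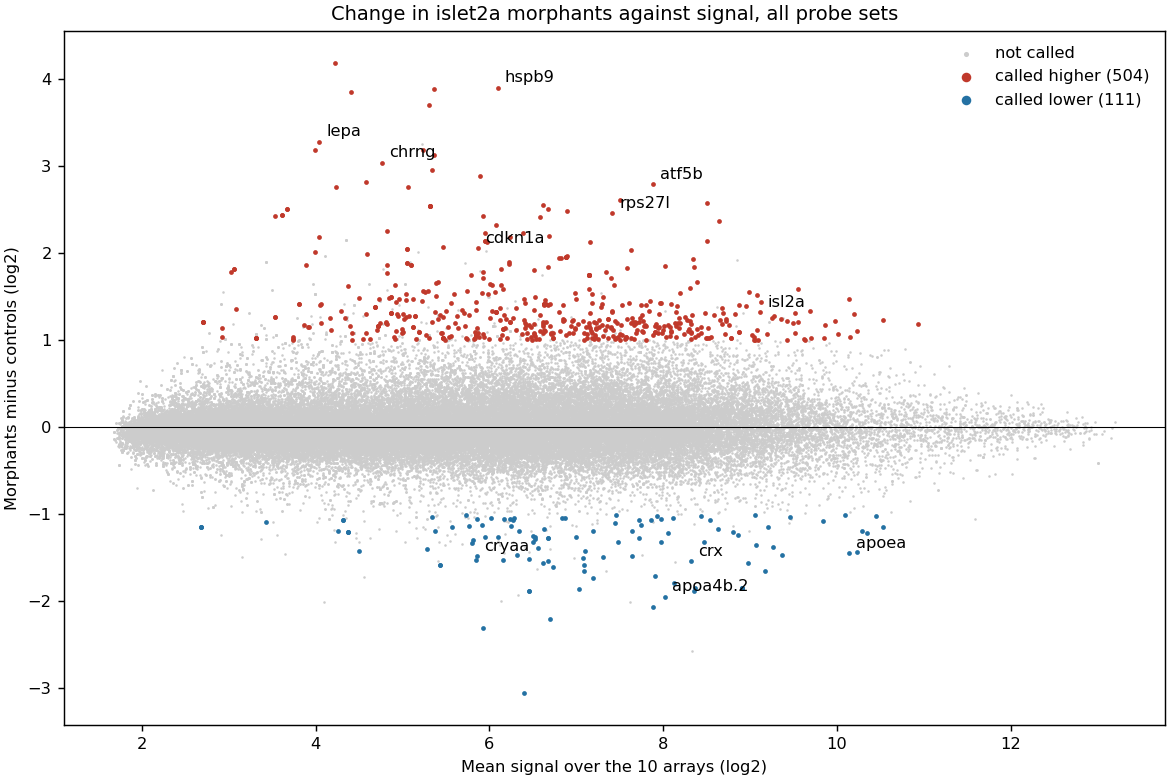
Change in morphants minus controls (log2) against mean signal over the 10 arrays (log2), 1 point per probe set, with called probe sets in colour. The 504 called rises reach 4.18 and the 111 called falls reach -3.05, and both occur over most of the signal range.

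The number of called falls depended on single arrays and on the kind of control. Without morphant array 2 there were 65 called falls and 502 called rises. Against uninjected embryos alone 423 probe sets were called (0.562%), 360 higher and 63 lower, and against the wildtype siblings alone 1015 were called (1.35%), 762 higher and 253 lower. Pairwise 2-group tests, in which every probe set has its own variance, called 243, of which 231 were higher and 12 lower. Of the 70 named genes that passed the adjusted p threshold, 45 did not pass in these pairwise tests, 18 did not pass against uninjected embryos alone and 6 did not against the siblings alone. The uninjected and the sibling wildtype embryos differed from each other at 24 probe sets (0.0319%), and none of the 615 was among them (0). That comparison set 2 arrays against 2, and the calls joined both kinds as 1 group, which disfavours probe sets that differ between them. The 0 is therefore no measure of how alike the controls were. Every one of the 615 had the same sign against either kind of wildtype. For 613 of them no other outcome was possible, because their morphant values lay all above or all below the control values. The shared sign is therefore no separate check of the calls against each kind of control.

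isl2a itself, the target of the morpholino, was higher in morphants. Its probe set (13162908) read 9.79, 9.96 and 9.91 on the morphant arrays, against 8.59 and 8.51 on the uninjected and 8.57 and 8.61 on the sibling arrays. The groups did not overlap, and the spread within each was small: 9.89 ± 0.09 in morphants (SD, n = 3) against 8.57 ± 0.04 in controls (n = 4). The change was 1.32 on the log2 scale (SE 0.08), 2.49-fold, with an adjusted p of 5.18e-05. An exact two-sided permutation test of the difference in means gave 0.0286, the smallest p that the splits of 3 arrays against 4 can give. Leaving out 1 array at a time gave changes of 1.28 to 1.37. On the mutant arrays isl2a read 8.95, 9.12 and 9.13, below every morphant and above every control, and the mutant change of 0.49 against the same controls also passed (limma, adjusted p = 0.0474).

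The other islet genes did not pass the test. isl1a, expressed in many motor and sensory neurons, read 8.61, 8.63 and 8.94 in morphants, against 9.39, 9.04, 9.35 and 9.28 in controls. All morphant values were below all control values, but the change of -0.54 (SE 0.14) had an adjusted p of 0.0507, just above the threshold. Whether isl1a passed depended on the setting: it did so under 9 of the alternatives given below. isl2b, the paralog of isl2a, read 6.37, 6.60 and 6.63 in morphants, against 7.11, 6.69, 7.01 and 7.02 in controls (log2 change -0.42, adjusted p = 0.178). isl1b was at 4.72 ± 0.17 in morphants and 4.64 in controls, with an adjusted p of 0.828. nrp1a and plxna3, a receptor pair implicated in the routing of CaP axons, changed by -0.02 and -0.21, with adjusted p of 0.952 and 0.354. Of the 17 measured genes on the list of islet and motor neuron regulators, isl2a was the one that passed the adjusted p threshold, in either direction.

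Known p53 targets were among the rises. p53 is a transcription factor that is activated by DNA damage and other stress and switches on genes of cell cycle arrest, apoptosis and its own feedback. Of 29 measured genes on the list, 14 rose (adjusted p below 0.05), 2 fell and 13 did not pass, and 7 were called higher. The shares over all 19260 genes, each by its brightest probe set, were 7.13% that rose, 2.81% that fell, 0.940% called higher and 0.244% called lower. This list and those below were chosen with earlier results of these data known, so their shares are descriptions and not tests. The median of the list was 0.37, against -0.005 over all genes. Averaged over the list, the morphant arrays lay 0.35 to 0.46 above the mean of all arrays and the control arrays 0.11 to 0.17 below it. The median change of the same genes in mutants, against the same controls, was -0.05.

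cdkn1a, which encodes the p21 inhibitor of cell cycle kinases, read 7.29, 7.31 and 7.18 in morphants, against 5.04, 5.31, 5.33 and 5.15 in controls. Its change was 2.05 (SE 0.10, adjusted p = 1.07e-05), or 4.15-fold, and the gap between the groups was far wider than the spread in either. mdm2, the ubiquitin ligase that targets p53, read 9.44, 9.79 and 9.51 in morphants and 7.70, 7.90, 7.72 and 8.36 in controls, a change of 1.66 (SE 0.16, adjusted p = 4.95e-04). rps27l, a ribosomal protein S27 paralog known as a p53 target in human cells, read 9.17, 9.19 and 9.06 in morphants, against 6.76, 6.74, 6.47 and 6.77 in controls. It changed by 2.45 (SE 0.11, adjusted p = 8.16e-06), the largest rise of the list, and its second probe set rose by 1.57. Smaller called rises were those of gadd45ab, a growth arrest and DNA damage gene (1.31), phlda3 (1.28), the initiator caspase casp8 (1.18) and bbc3, which encodes the pro-apoptotic Puma (1.05). Cyclin G1 (ccng1) rose by 0.89, the death receptor fas by 0.98 and sesn2 by 0.95. mdm4, a second inhibitor of p53, fell by 0.66, and tp53inp1 fell by 0.52. Leaving out 1 array at a time gave 12 to 14 rises, while the falls were 1 without morphant array 1 or sibling array 2 and 0 without morphant array 3, and the pairwise 2-group tests gave 8 rises, without phlda3 and bbc3, and no fall (0).

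Transcription factors of the integrated stress response made up a further group of rises. In this response, phosphorylated eIF2 slows general translation and favours that of ATF4, which activates genes for amino acid supply and, under lasting stress, the pro-apoptotic factor CHOP. Of 40 measured genes on the list of the integrated stress and unfolded protein response, 11 rose, 4 fell and 25 did not pass. Of the 40, 7 were called higher. Over all genes 7.13% rose, 2.81% fell and 0.940% were called higher, so this list had larger shares of both rises and falls. Its median was 0.06, against -0.005 over all genes, so the list as a whole moved little. All 7 called genes encode bZIP transcription factors. atf5b had the largest change, with 9.75, 10.09 and 9.65 in morphants against 6.71, 7.27, 7.01 and 7.17 in controls (log2 change 2.79, SE 0.15, adjusted p = 1.78e-05). ddit3, which encodes CHOP, read 8.19, 8.13 and 8.25 in morphants and 5.99, 6.41, 6.07 and 6.51 in controls, 3.85-fold higher (adjusted p = 2.17e-04). For both genes the lowest morphant array lay far above the highest control.

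The co-orthologs atf4a and atf4b moved by nearly the same amount at high signal. atf4a read 11.70, 11.83 and 11.61 in morphants, against 10.51, 10.69, 10.38 and 10.54 in controls (1.18, SE 0.09). atf4b read 10.97, 11.00 and 10.96 in morphants and 9.99, 9.78, 9.92 and 9.81 in controls (1.10, SE 0.09). atf5a (1.33), atf3 (1.29) and cebpg (1.20) completed the called genes, and asns, the asparagine synthetase gene that ATF4 activates, rose by 0.46. The genes that fell were calr3b, a calreticulin (by 0.73), sdf2l1 (by 0.58), creld2 (by 0.53), all of the endoplasmic reticulum, and slc7a11, the cystine transporter (by 0.51). hspa5, the main chaperone of the endoplasmic reticulum and the usual sign of an unfolded protein response, was at 10.71 in morphants and 10.68 in controls (log2 change 0.02, adjusted p = 0.963). With any 1 of 6 arrays left out (morphant arrays 1, 2 and 3, uninjected array 2, and sibling arrays 1 and 2) 2 genes fell, and 8 to 11 rose with any 1 of the 7 left out.

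**Figure D2:**
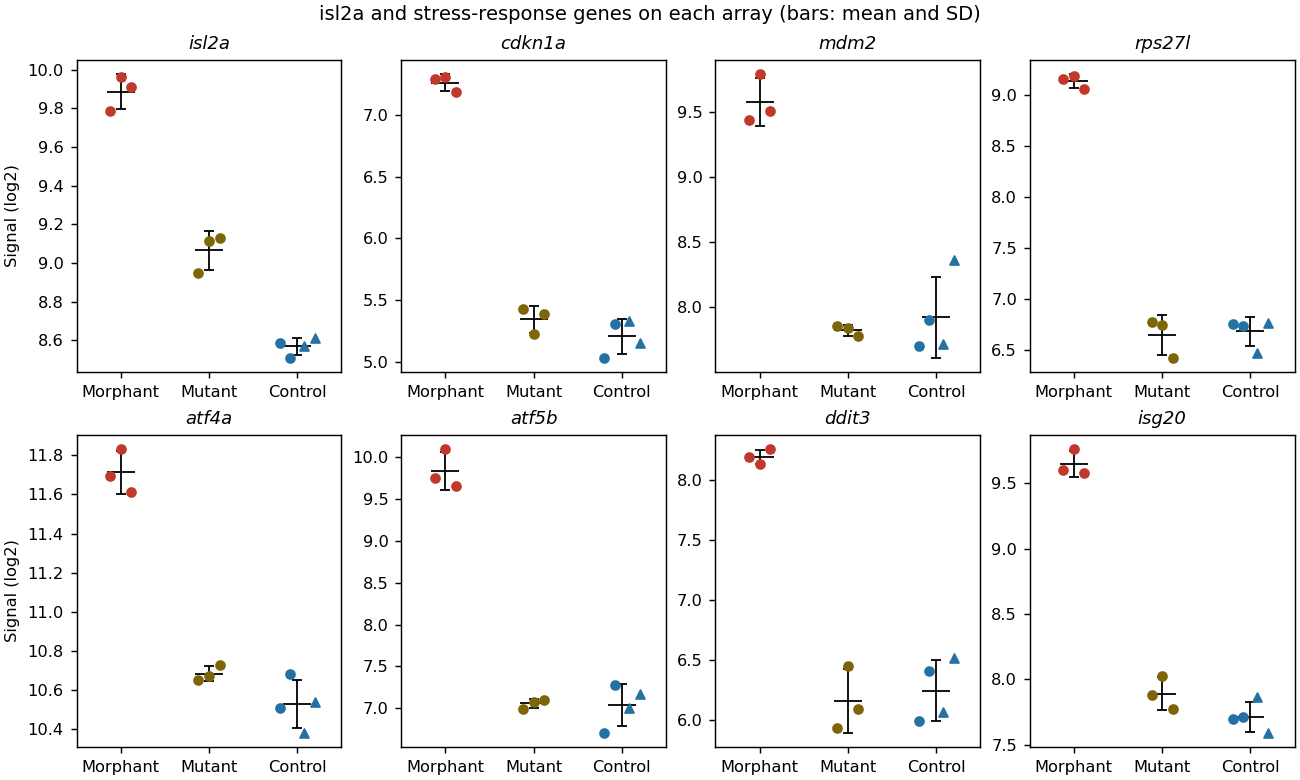
Log2 signal of isl2a, 3 genes of the p53 response, 3 of the integrated stress response and isg20 on each array, with circles for morphant, mutant and uninjected arrays, triangles for sibling arrays, and bars for the group mean and SD. The 3 morphant values lie above all other arrays in each panel, and for isl2a the mutants lie between the groups.

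Small heat shock proteins and their partners gave the single largest named rise. Of 34 genes for heat shock and small heat shock proteins, 7 rose (20.6%, against 7.13% of all genes). The others were 1 that fell and 26 that did not pass, and the list median was 0.19. hspb9, a small heat shock protein gene, read 8.53, 7.65 and 9.84 in morphants, against 4.74, 4.51, 4.66 and 5.21 in controls. This was a change of 3.90 (SE 0.41, adjusted p = 8.14e-04), with more than 2 log2 units between the lowest and the highest morphant array. A second, dimmer probe set of hspb9 changed by 0.51 (adjusted p = 0.0353), so the size of this rise rests on 1 probe set. hspb9l, a related gene, rose by 2.43 with the same order of arrays, at 7.13, 6.89 and 8.75 in morphants and 5.31, 5.18, 4.88 and 5.27 in controls. bag3, a co-chaperone of chaperone-assisted autophagy in muscle, was called at 1.23 and hspa1b, an inducible Hsp70 gene, at 1.05. hspb8, the small heat shock partner of Bag3, rose by 0.93, and unc45b, the myosin chaperone, by 1.00. The gene that fell was hsf4 (by 0.85), the heat shock factor of the lens. Without morphant array 1, 4 genes of the list rose, and in the pairwise 2-group tests 1 rose, and hspb9, hspb9l, bag3 and hspa1b did not pass.

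Few interferon response genes passed the test, and a larger share of inflammation genes rose. Of 38 interferon response genes, 4 rose (10.5%, against 7.13% of all genes) and none fell (0), and 12 of the 38 averaged above the median of all values. irf7, a transcription factor of interferon induction, read 6.75, 7.48 and 6.30 in morphants and 4.45, 4.69, 4.95 and 4.99 in controls (2.07, SE 0.24, adjusted p = 0.00132). isg20, an interferon-stimulated exonuclease gene, read 9.60, 9.76 and 9.58 in morphants, against 7.69, 7.71, 7.87 and 7.59 in controls (1.93, SE 0.10, adjusted p = 1.44e-05). irf9 rose by 0.89 and isg15 by 0.70. The classical effectors rsad2 (viperin) and mxa were below the median of all values in both groups, at 3.37 and 4.53 in morphants against 3.39 and 4.38 in controls, with adjusted p of 0.945 and 0.668. Of 35 inflammation genes, 7 rose and 1 fell, led by the matrix metalloprotease mmp9 (1.63) and the chemokine cxcl18b (1.25). il1b read 5.56 in morphants and 5.52 in controls (adjusted p = 0.969). The 7 rises were 4 without morphant array 1 and 4 without uninjected array 1. mmp9 and cxcl18b did not pass against uninjected embryos alone or in the pairwise 2-group tests, and irf7 did not pass in those pairwise tests. Of 24 macrophage and neutrophil markers none rose (0) and 1 fell, lcp1 (by 0.48). Relative to the mean of all arrays, these markers averaged -0.03 to 0.05 in morphants and -0.04 to 0.14 in controls, while the inflammation list averaged 0.13 to 0.29 in morphants and -0.18 to 0.02 in controls.

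Muscle genes that respond to innervation and mechanical stress were among the rises. Of 40 genes on the list of muscle endplate, denervation and stress, 17 rose (42.5%, against 7.13% of all genes), none fell (0) and 23 did not pass. The median was 0.40, and 34 of the 40 changes were positive. The list averaged 0.36 to 0.50 on the morphant arrays and -0.27 to -0.06 on the control arrays, relative to the mean of all arrays. Of 65 skeletal sarcomere genes, 2 rose and 1 fell, with a median of 0.06. mylpfa, a fast myosin light chain, read 12.11 in morphants and 12.02 in controls (adjusted p = 0.588).

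chrng, the gamma subunit of the embryonic acetylcholine receptor, read 7.06, 6.99 and 6.52 in morphants, against 3.70, 3.62, 4.09 and 3.89 in controls. The change was 3.04 on the log2 scale (SE 0.15, adjusted p = 1.44e-05). musk, the endplate kinase that clusters these receptors, read 6.73, 6.59 and 6.70 in morphants and 5.64, 5.72, 5.33 and 5.65 in controls (1.09, SE 0.11). The anchoring protein gene rapsn rose by 0.52. Other receptor subunits did not pass: chrnd changed by 0.58 (adjusted p = 0.0567), chrnb1 by 0.39, chrne by 0.16 and chrna1 by 0.11.

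The stress genes of striated muscle were the more variable part of this list. ankrd1a, a titin-binding protein that is induced by stretch and injury in mammals, read 7.75, 6.08 and 8.96 in morphants, against 4.48, 4.36, 4.15 and 4.89 in controls (3.13, SE 0.51, adjusted p = 0.0076). tcap (telethonin, the titin cap) read 6.66, 6.10 and 8.15 in morphants and 4.14, 4.16, 4.01 and 4.58 in controls (2.75, SE 0.39). xirp1, an actin-binding gene of damaged muscle, read 7.22, 6.76 and 8.03 in morphants, against 5.65, 5.51, 5.33 and 5.60 in controls (1.82, SE 0.25). In all 3 genes morphant array 3 was the highest and array 2 the lowest, the order also seen in hspb9. The groups did not overlap, which the naming of ankrd1a and tcap by size of the change required. The ubiquitin ligase genes trim55b, trim55a and trim63a rose by 1.17, 0.99 and 0.94, and the intermediate filament gene desma rose by 0.95. The myogenic factors myf5, myod1 and myog rose by 1.00, 0.82 and 0.56. ampd1, the AMP deaminase of skeletal muscle, went the other way, at 7.67, 7.70 and 7.85 in morphants against 9.66, 9.15, 8.87 and 9.53 in controls (-1.56, SE 0.18, adjusted p = 0.00132). Against uninjected embryos alone, 11 genes of the endplate and stress list rose, and in the pairwise 2-group tests 7, where ankrd1a, tcap, xirp1, trim55b, myf5 and ampd1 did not pass.

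**Figure D3:**
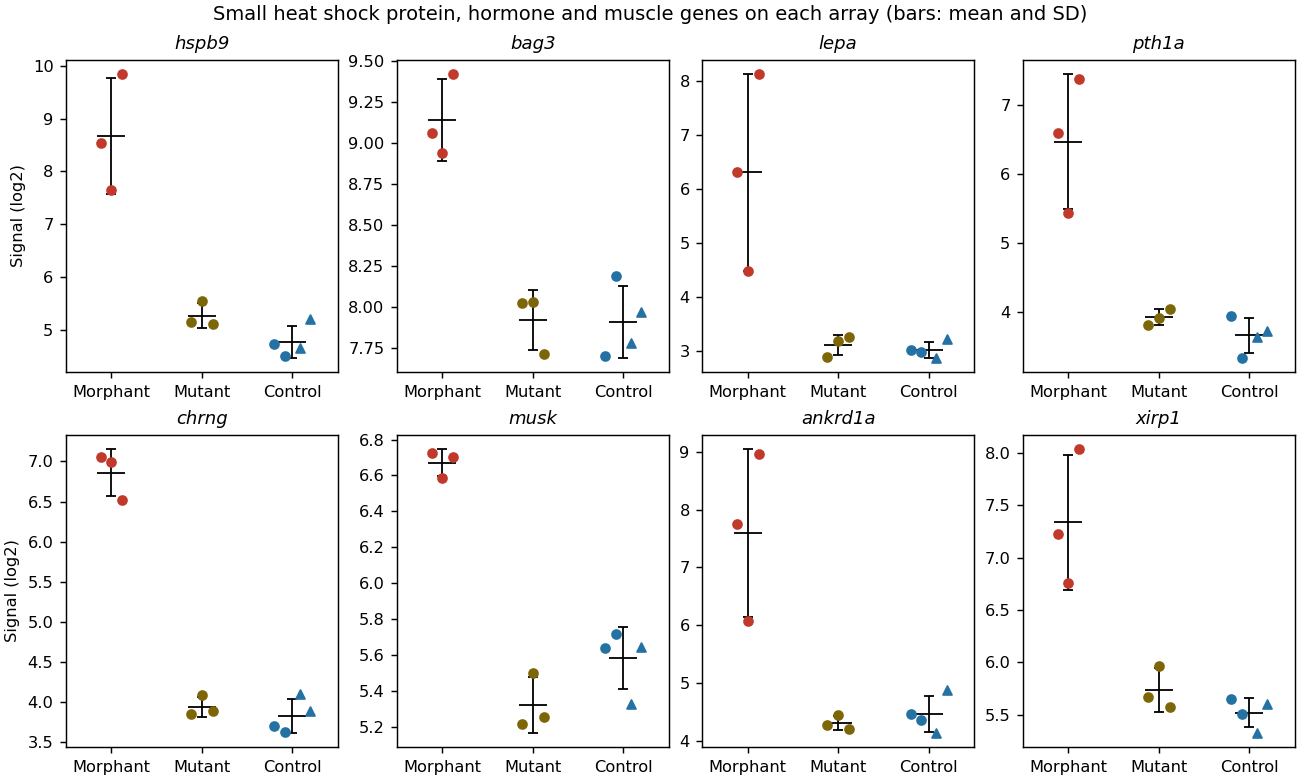
Log2 signal of 2 heat shock genes, 2 hormone genes and 4 muscle genes on each array, with circles for morphant, mutant and uninjected arrays, triangles for sibling arrays, and bars for the group mean and SD. For hspb9, lepa, pth1a, ankrd1a and xirp1 the morphant arrays spread widely and array 2 is lowest, while chrng and musk differ little between morphant arrays.

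Hormone and transport genes of several organs were among the largest rises. lepa, one of the leptin genes and a known hypoxia-induced gene in fish, read 6.31, 4.50 and 8.13 in morphants, against 3.03, 2.98, 2.89 and 3.24 in controls. The groups did not overlap, as naming by size of the change required, but the morphant arrays spread over more than 3 log2 units. The change of 3.28 (SE 0.63) had an adjusted p of 0.0156. It was 0.0609 without morphant array 1, 0.0724 against uninjected embryos alone and 0.0548 against the siblings alone, and lepa did not pass in the pairwise 2-group tests. igfbp1a, which encodes an insulin-like growth factor binding protein induced in hypoxia and starvation, read 8.81, 9.22 and 9.10 in morphants and 7.29, 7.81, 7.55 and 7.82 in controls (1.43, adjusted p = 6.85e-04). Of 43 hypoxia response genes 6 rose (14.0%, against 7.13% of all genes) and 2 fell (4.65%, against 2.81%). Among them were the glycolytic ldha, which fell by 0.51, and ndrg1b, which was called lower at -1.42. The 6 rises were 1 to 3 without any 1 of uninjected array 1, sibling array 1 and the 3 morphant arrays, and the median of the list was 0.05. ndrg1b did not pass against uninjected embryos alone or in the pairwise 2-group tests.

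pth1a, a parathyroid hormone gene of calcium balance, read 6.59, 5.43 and 7.38 in morphants, against 3.94, 3.33, 3.63 and 3.72 in controls (2.81, SE 0.36, adjusted p = 0.00195). rhcga, an Rh-family ammonia channel of skin ionocytes, read 7.76, 6.48 and 7.83 in morphants and 4.08, 4.55, 4.40 and 4.58 in controls (2.96, SE 0.35, adjusted p = 0.0014). Both were lowest on morphant array 2. They were the called genes among 45 measured genes of skin ionocytes and calcium hormones. Of the 45, 4 rose (8.89%, near the 7.13% of all genes) and none fell (0). Of 44 immediate early genes, 8 rose (18.2%, against 7.13% of all genes) and 3 fell (6.82%, against 2.81%). Called rises were those of fosl1a (1.83), fosl2 (1.28), mycb (1.10) and ccn2a (1.04), and klf11a was a called fall (-1.04). The 3 falls were 1 without morphant array 1 or 2, uninjected array 1 or either sibling array. Fibronectin 1b (fn1b) rose by 1.30 and hmgcra, the rate-limiting enzyme of sterol synthesis, by 1.23. hmgcra was the 1 called gene among 39 genes of sterol and fatty acid synthesis. Of the 39, 3 rose and 3 fell (7.69% each, against 7.13% and 2.81% of all genes). Their median was -0.16, with 29 negative changes. In the pairwise 2-group tests pth1a, rhcga, fosl1a, ccn2a, klf11a, fn1b and hmgcra did not pass, and fosl1a did not pass against either kind of wildtype alone. ccn2a did not pass against the siblings alone (limma, adjusted p = 0.06).

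Further genes with the largest rises have no role given here or one known only from other animals. si:dkey-40h20.1 read 8.0, 8.11 and 8.44 in morphants and 4.13, 4.09, 4.20 and 4.78 in controls (3.88, SE 0.17), and its other 3 probe sets rose by 2.76 to 3.69. si:ch73-56d11.5 changed by 3.85 and LOC100537178 by 2.51. si:dkey-204l11.1, for which the reference table lists the synonym tnfrsf27, had the smallest adjusted p of the named genes, 7.3e-07, at 7.82, 8.06 and 7.88 in morphants against 5.07, 4.91, 5.12 and 5.03 in controls (2.89, SE 0.09). optc, which encodes the extracellular proteoglycan opticin, rose by 2.48. si:dkey-40h20.1 and si:dkey-204l11.1 varied little between the morphant arrays, unlike hspb9 and lepa. Of the 15 largest named rises, 9 had a control mean below the median of all values, as did 1 of the 15 largest falls in morphants. No detection call was used for these dim genes, so their changes are those of the deposited signals.

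By count, lens genes were the largest group of falls among the lists. The lens consists of fibre cells packed with crystallins, whose transcripts are among the most abundant of the embryonic eye. Of 69 measured lens genes, none rose (0), 15 fell (21.7%, against 2.81% of all genes) and 54 did not pass. Among the falls 8 were called lower, and 60 of the 69 changes were negative. The median was -0.30, and it was -0.29 for the 43 crystallin genes among them, of which 10 fell. Near-identical crystallin copies were counted here as separate genes, so the counts and shares of this list do not rest on independent measurements. The list averaged -0.51 to -0.28 on the morphant arrays and -0.17 to 0.13 on the control arrays, the lowest control being uninjected array 2. In mutants, against the same controls, the median of the list was 0.21.

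cryaa, which encodes the chaperone alpha A-crystallin, read 4.54, 4.17 and 5.0 in morphants, against 5.97, 5.49, 6.44 and 6.31 in controls (-1.48, SE 0.26, adjusted p = 0.00969). lim2.5, a lens membrane protein gene, read 5.83, 4.96 and 6.02 in morphants and 7.25, 6.79, 7.55 and 7.45 in controls (-1.66, SE 0.26, adjusted p = 0.00614). crygm2d15, a gamma M-crystallin gene, read 6.46, 6.24 and 6.96 in morphants against 8.11, 7.56, 8.92 and 8.77 in controls (-1.79, SE 0.35, adjusted p = 0.0177). The groups did not overlap for any of these genes, as the rule for naming the largest falls required. The gamma M-crystallin genes are near-identical tandem copies whose probes may share signal, so crygm2d15, crygm2d7 (-1.20) and crygm2d13 (-1.02) are not separate measurements. mipb, a lens aquaporin gene (-1.36), crygmxl1 (-1.20) and the lens galectin grifin (-1.05) were also called. Abundant crystallins moved less, with crybb1 at 11.21 in morphants and 11.49 in controls (adjusted p = 0.426). The 15 falls were 7 without morphant array 1, 8 without morphant array 2 and 9 without either sibling array, 4 against uninjected embryos alone, and 1 in the pairwise 2-group tests. cryaa, crygm2d15, crygm2d7, crygm2d13 and mipb passed neither against uninjected embryos alone nor in the pairwise tests. lim2.5, crygmxl1 and grifin did not pass in the pairwise tests, and mipb did not pass against the siblings alone. crygm2d7 and crygm2d13 also did not pass without morphant array 1 or 2, uninjected array 1 or either sibling array.

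In the retina, the called falls were 5 transcription factor genes and 1 gene of the light response. Of 74 photoreceptor and retina genes 8 fell (10.8%, against 2.81% of all genes), 6 of them called. The others were 1 that rose (rx1, by 0.72) and 65 that did not pass, and the list median was -0.10. crx, the cone-rod homeobox gene that switches on photoreceptor genes, read 6.64, 6.70 and 7.60 in morphants, against 8.82, 7.71, 8.65 and 8.89 in controls (-1.54, SE 0.36, adjusted p = 0.0358). otx5, a homeobox gene of photoreceptors and the pineal, read 5.61, 5.91 and 6.24 in morphants and 8.02, 6.67, 7.73 and 7.23 in controls (-1.49, SE 0.30, adjusted p = 0.0199). vsx1, a homeobox gene of bipolar cells, read 7.90, 7.90 and 8.48 in morphants, against 10.04, 8.71, 9.80 and 9.71 in controls (-1.47, SE 0.32, adjusted p = 0.026). In all 3 genes uninjected array 2 was the control nearest to the morphants. No morphant value reached it, as the rule for naming the largest falls required.

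pde6gb, the gamma subunit of the phosphodiesterase of phototransduction, read 6.52, 6.53 and 6.89 in morphants and 8.56, 7.73, 8.55 and 8.56 in controls (-1.71, SE 0.22, adjusted p = 0.00191). nr2e3, a photoreceptor nuclear receptor gene, was called at -1.29, and atoh7, required for retinal ganglion cells, at -1.04. neurod1, which is expressed in the retina and elsewhere, changed by -0.71 with an adjusted p of 0.0872. The opsin opn1sw1 and the cone transducin gnat2 lay below the median of all values in both groups, at 3.96 and 4.83 in morphants against 4.17 and 4.76 in controls (adjusted p = 0.429 and 0.817). Without any 1 of morphant arrays 1 and 2, uninjected array 1 and both sibling arrays, 4 or 5 genes of the list fell, and crx and vsx1 lost the adjusted p threshold in each of these 5 sets. Against uninjected embryos alone 2 genes of the list fell, and crx (adjusted p = 0.178), vsx1 (0.14), otx5 (0.1) and nr2e3 (0.0559) did not pass. In the pairwise 2-group tests 1 gene fell, and pde6gb did not pass either. Against the siblings alone otx5 did not pass (limma, adjusted p = 0.0541).

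**Figure D4:**
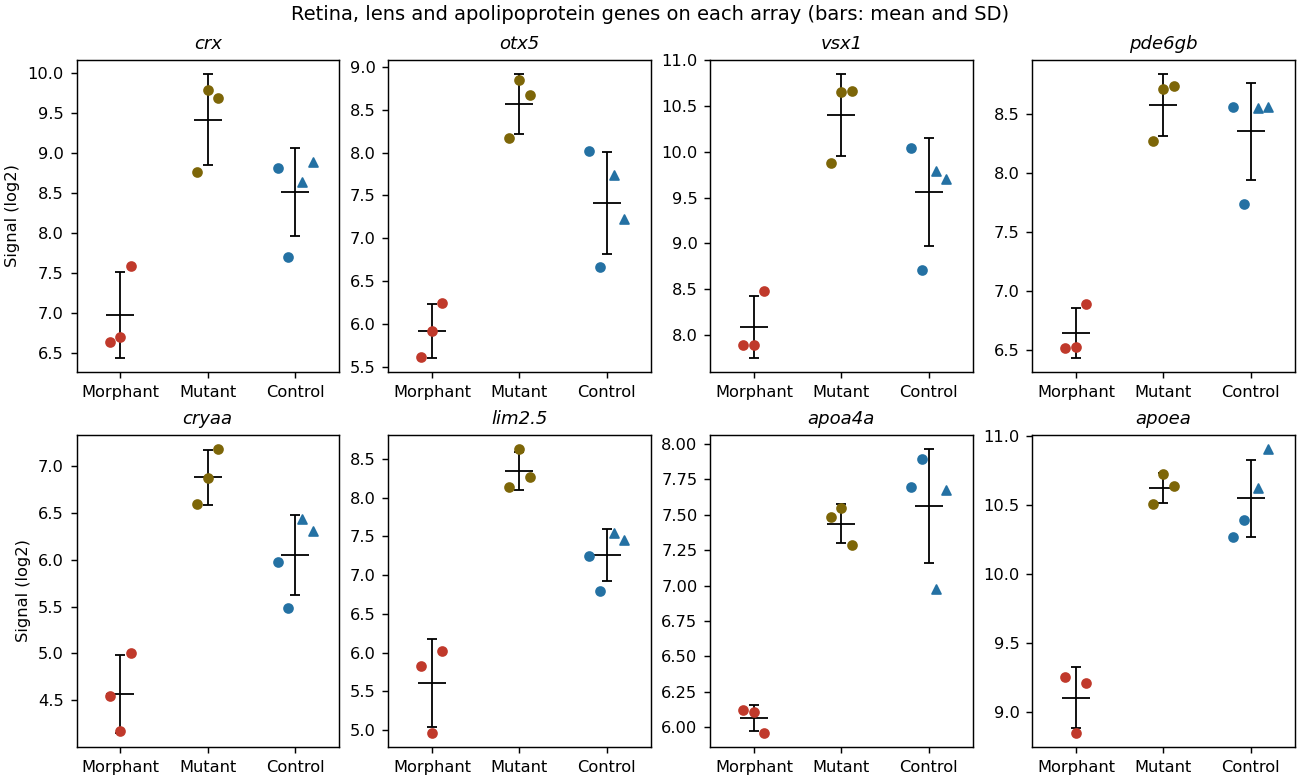
Log2 signal of 4 retina, 2 lens and 2 apolipoprotein genes on each array, with circles for morphant, mutant and uninjected arrays, triangles for sibling arrays, and bars for the group mean and SD. All morphant values lie below all control values in each panel, as the rule for naming the largest falls required. For crx, otx5, vsx1, pde6gb, cryaa and lim2.5 uninjected array 2 is the lowest control.

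Apolipoprotein genes of the yolk syncytial layer and liver were also among the falls. These tissues package yolk lipid into lipoproteins for the embryo. Of 48 genes of the liver and yolk syncytial layer 7 fell (14.6%, against 2.81% of all genes), 3 of them called. None rose (0), and the median was -0.12. Of the 12 apolipoprotein genes among them 11 changes were negative and 5 genes fell. apoa4b.2 read 7.19, 6.63 and 5.85 in morphants, against 8.31, 7.99, 9.02 and 8.68 in controls (-1.95, SE 0.31, adjusted p = 0.00605), the largest fall of a named gene. A second, dimmer probe set of apoa4b.2 changed by -0.84 (adjusted p = 0.00249), less than 2-fold, so the size of this fall rests on 1 probe set. apoa4a read 6.12, 6.11 and 5.96 in morphants and 7.70, 7.89, 6.98 and 7.68 in controls (-1.50, SE 0.19, adjusted p = 0.00179). apoea, an apolipoprotein E gene, read 9.25, 8.85 and 9.21 in morphants, against 10.27, 10.39, 10.62 and 10.90 in controls (-1.45, SE 0.16, adjusted p = 9.95e-04). The morphant values of these genes did not reach the lowest control, as the rule for naming the largest falls required. f7, the coagulation factor VII gene, fell by 0.93, apom by 0.64 and apoc2 by 0.33. Without morphant array 2 or 3, 4 genes of the list fell, against uninjected embryos alone 3, and in the pairwise 2-group tests none (0).

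Other large falls came from single genes. slc22a6l, an organic anion transporter gene, read 5.85, 4.83 and 5.90 in morphants, against 7.07, 6.79, 7.50 and 6.96 in controls (-1.56, SE 0.25, adjusted p = 0.00683). a2m2h changed by -1.73, ly6pge by -1.54 and the long noncoding RNA si:ch211-209j10.6 by -1.53, with adjusted p of 0.0185, 0.0345 and 0.0305. The second probe set of slc22a6l was at 3.41 in morphants and 3.46 in controls and did not pass (adjusted p = 0.81). Other probe sets of si:ch211-209j10.6 changed by -0.96 to -1.51. Those that passed had adjusted p of 0.0379 and 0.0454, and those that did not had 0.0582, 0.0676 and 0.222. ednrba, an endothelin receptor gene of pigment cells, was called at -1.26 (adjusted p = 0.00165) and was the 1 gene that passed among 35 pigment cell genes. slc22a6l, a2m2h, ly6pge and si:ch211-209j10.6 did not pass against uninjected embryos alone, nor, with ednrba, in the pairwise 2-group tests. ly6pge also did not pass against the siblings alone (limma, adjusted p = 0.0643).

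Few genes of the neuronal lists passed the test. Of 23 general neuron genes none rose (0) and 3 fell (13%, against 2.81% of all genes), tubb5 (by 0.62), stmn2a (by 0.56) and stmn2b (by 0.52), with a median of -0.21 and 20 negative changes. The list averaged -0.36, -0.26 and -0.06 over the morphant arrays, lowest on array 2, and -0.10 to 0.05 over the controls, so the groups overlapped. elavl3 read 11.34, 10.54 and 11.55 in morphants, against 11.46, 11.42, 11.53 and 11.42 in controls, low on morphant array 2 alone. Without morphant array 1, 1 neuron gene fell. Of 69 synapse and transmitter receptor genes none passed at all (0 by limma at an adjusted p below 0.05, 16 at an unadjusted p below 0.05, and 0 called in any direction), with a median of -0.10.

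Among 47 axon guidance genes 4 rose (8.51%, near the 7.13% of all genes) and 3 fell (6.38%, against 2.81%). The median of the list was 0.02. The netrin gene ntn1a read 7.62, 7.83 and 7.65 in morphants and 6.51, 6.93, 6.95 and 6.63 in controls (0.94, adjusted p = 0.00506). sema3h fell by 0.81, and sema3d, at 7.41, 7.12 and 7.41 in morphants against 7.87, 7.84, 8.01 and 8.0 in controls, fell by 0.62. None reached 2-fold (0 called). Of 35 voltage-gated channel genes 1 rose, the potassium channel gene kcna1b (0.66), and 1 fell, the muscle sodium channel gene scn4aa (by 0.46), and of 13 neurotrophin signalling genes none passed (0 by limma, 3 at an unadjusted p below 0.05).

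**Figure D5:**
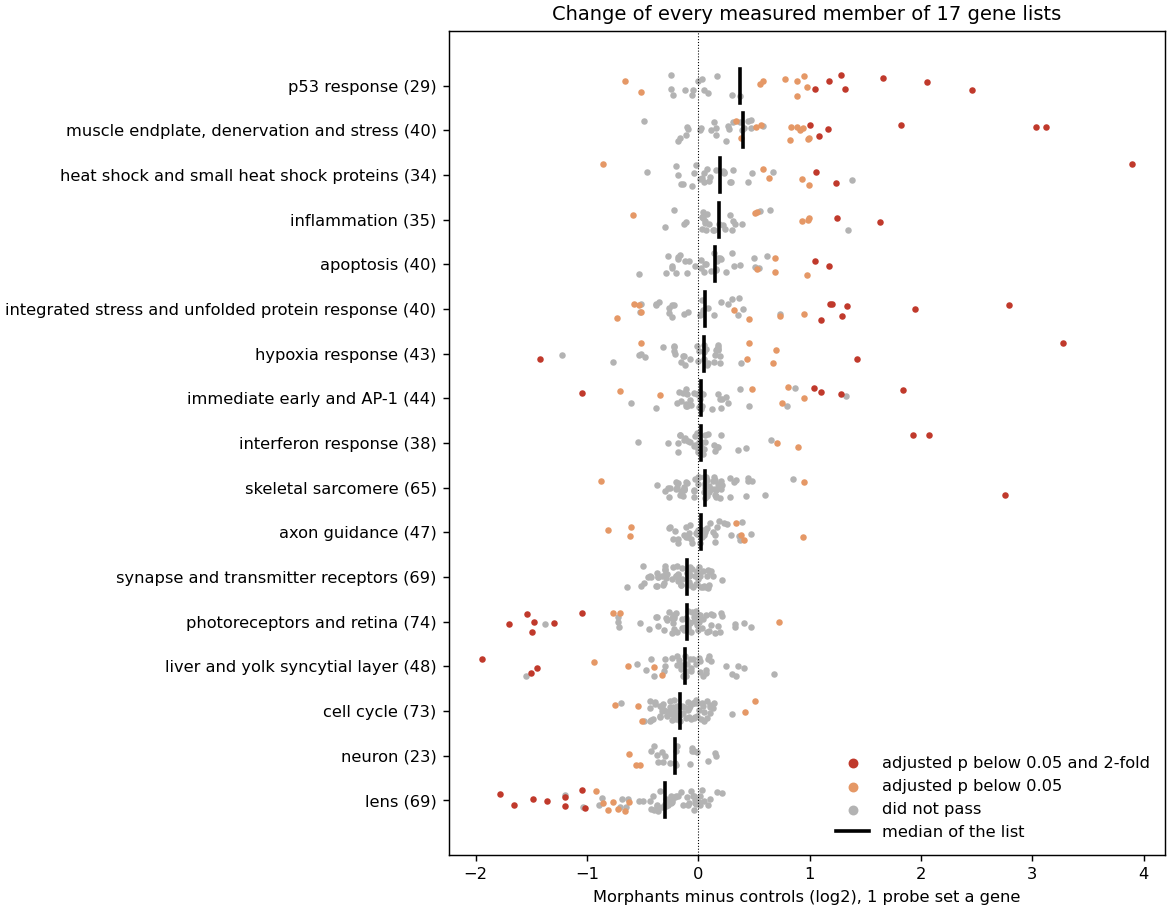
Log2 change in morphants minus controls of every measured member of 17 gene lists, 1 point per gene by its brightest probe set, coloured by whether it passed the adjusted p threshold alone or also 2-fold, with a line at each median. The p53 and muscle stress lists have medians of 0.37 and 0.40, the lens list -0.30, and most members of every list lie within 1 log2 unit of no change.

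Cell cycle genes were slightly low, with 57 of 73 changes negative and a median of -0.16. Of the 73, 3 fell (4.11%, against 2.81% of all genes), 2 rose (2.74%, against 7.13%), and none was called (0). The 2 that rose were the cyclin D genes ccnd1 (0.51) and ccnd2a (0.42), and those that fell included cdk1 (by 0.51). In mutants, against the same controls, the median of the list was lower, at -0.41. Relative to the mean of all arrays, the list averaged -0.02 to 0.03 in morphants and 0.03 to 0.32 in controls, highest on uninjected array 2. Of 40 apoptosis genes 6 rose and none fell (0), 3 of the 6 (fas, bbc3 and casp8) being p53 targets already given. Of 58 cytochrome P450 and xenobiotic response genes 7 rose (12.1%, against 7.13% of all genes), none to 2-fold. With any 1 array left out 2 to 5 rose. The proteasome (39 genes), exocrine pancreas (23) and endocrine pancreas (26) lists had no gene that passed, with 7, 2 and 11 genes at an unadjusted p below 0.05.

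The values were also set beside those of the mutants, at an adjusted p below 0.05 with no fold threshold. All 30 genes with the largest rises and falls differed between morphants and mutants, where 13.6% of all probe sets passed. None of the 30 passed in mutants against controls (0 by limma, 9 at an unadjusted p below 0.05), where 0.338% of all probe sets passed, and of the 70 named genes that passed in morphants 1 did, isl2a. Both comparisons share arrays with the one described, so these values are not independent of it. Of the same 30 genes, 27 passed against the sibling wildtype alone (4.10% of all probe sets) and 20 against the uninjected wildtype alone (1.93%), and none differed between both kinds of wildtype (0 by limma, 6 at an unadjusted p below 0.05). atoh7 was the called gene of the lists that did not differ from mutants, at 6.35, 6.20 and 6.50 in morphants, a mean of 6.69 in mutants and 7.48, 7.45, 7.46 and 7.18 in controls (adjusted p against mutants 0.24).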

How the data were processed

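RNA of whole embryos was measured on 10 arrays, 7 of which are compared here. The authors deposited log2 signals. The methods name robust multi-array averaging (RMA, in the oligo package) and the submitters' processing notes name GCRMA, which corrects background in another way, both without a version. Which of them made these values is not settled here. Values were used as deposited, without a filter. Quantile normalization, a step of both, makes arrays equal in distribution and can hide a shift of all genes.

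limma 3.58.1 in R 4.3.3 fitted 1 mean for each of the 3 groups (residual degrees of freedom 7, prior 3.13), two-sided, with Benjamini-Hochberg adjustment over all 75212 probe sets. The median SD within groups was 0.165 on the log2 scale, and precision is limited by having 3 and 4 arrays. A call needed an adjusted p below 0.05 and 2-fold. "Rose" and "fell" need the adjusted p alone. Gene symbols came from the platform annotation (20806 probe sets with 1 symbol, 855 with several, 53551 with none), of which 20323 were found by gene identifier in a reference table. The 40 gene lists had 1643 of 1887 entries measured, by the brightest probe set of a gene. Named are the 15 largest called rises and 15 largest called falls whose groups do not overlap, the study's genes, the 8 largest called members of each list, and other list members with their values. The comparison, lists and rule were chosen with earlier results of these data known. Alternatives were a fit of the 7 arrays alone, the pairwise 2-group tests of the methods, each kind of wildtype alone, repeated quantile normalization, median centring, array weights, a trended prior, leaving out dim probe sets, testing 1-symbol probe sets alone, the replicate block, no fold threshold, identical probe sets counted once, the mean over a gene's probe sets, and each array left out. Python 3.11.15 with pandas 2.3.3 and matplotlib 3.10.9 made tables and figures.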

Additional observations from a re-analysis of the deposited data

Results flagged for a closer look

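In the control group of 4 arrays, 1 array stood far from the other controls for 5 of the 75 named genes. Chance alone flags about 1 gene in 20, so this count is near chance, and the outlying array was not the same for every gene. For pde6gb the gap between the outlying array and its neighbour made up nearly the whole control range (a ratio of gap to range of 0.988). pde6gb read 7.73 on uninjected array 2 and 8.55 to 8.56 on the other controls. The ratio was 0.908 for atoh7 (sibling array 2 low, at 7.18), 0.893 for hspa1b (sibling array 2 high, at 5.14), 0.89 for rps27l (sibling array 1 low, at 6.47) and 0.847 for si:dkey-40h20.1 (sibling array 2 high, at 4.78). In each of the 5 genes the outlying control still lay apart from all 3 morphant values. The rule for naming pde6gb, rps27l and si:dkey-40h20.1 required this, and 613 of the 615 called probe sets showed it. The separation is therefore no check of these calls.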

How the results depend on the processing

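Leaving out 1 array at a time gave 509 to 744 called probe sets, 406 to 599 higher and 65 to 145 lower in morphants. The pairwise 2-group tests of the methods called 243 (231 higher, 12 lower), and testing only probe sets with 1 symbol called 265 (201 and 64). Uninjected wildtype alone gave 63 called falls, and sibling wildtype alone gave 1015 called probe sets (762 and 253). Without the fold threshold 3886 passed (2703 and 1183). All other alternatives stayed within 1.5 times of the 615 called probe sets. Of 1423 values of single named genes under an alternative, 1297 stayed on their side of the adjusted p threshold, 117 lost it, 9 gained it (all isl1a) and 0 reversed. Of the 70 named genes that passed, 45 lost it in the pairwise 2-group tests, rises such as hspb9, ankrd1a, tcap, pth1a and irf7 among them, 18 against uninjected wildtype alone and 6 against siblings alone. In leaving out an array, 11 lost it at least once: lepa and 10 falls, among them crx, otx5, vsx1 and crygm2d15. The groups share replicate numbers, and deviations from group means of same-numbered morphant and control arrays correlated at 0.013 and 0.022 (uninjected) and 0.223 and 0.142 (siblings). With 2 arrays of each kind of wildtype, the deviations of the 2 are mirror images. These values therefore cannot decide whether the numbers mark pairs, and the numbers were not taken as pairs. With the replicate number as a block 576 were called, isl2a changed by 1.29, and fosl1a, si:ch211-209j10.6, crygm2d7 and crygm2d13 lost the threshold. Averaging all probe sets of a gene, which tests fewer features, gave 27 lens genes that fell and 11 heat shock genes that rose. isl2a kept its call under every alternative. Signals below the median of all values limit what can be seen for genes such as rsad2.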

Other observations

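Many genes of ribosome assembly, RNA polymerases I and III and cytosolic tRNA charging, which no list covered, also rose, most of them by less than 2-fold. They were counted by gene symbol after their values were seen, so the counts describe these arrays and are not tested. All 7 rrp genes and all 7 nop genes (nucleolar factors that process and assemble ribosomal RNA) rose in morphants, with medians of 0.92 and 0.63, and 7 of 8 utp genes (parts of the small-subunit processome in yeast) rose, with a median of 0.77. Examples are rrp8 (1.43), utp4 (1.40) and nop2 (1.09). Of 8 polr1 genes (RNA polymerase I) 7 rose, led by polr1a (1.21), polr1f (1.20) and polr1b (1.12), and the eighth change was positive. Of 9 polr3 genes (RNA polymerase III) 6 rose and 1 fell. Of 14 polr2 genes (named for RNA polymerase II) 2 rose, with a median of 0.14. The symbols do not separate subunits that the polymerases share, so these counts do not compare the polymerases with each other. The shares over all genes were 7.13% that rose and 2.81% that fell. Fewer were called higher, which needs 2-fold: 3 of 7 rrp, 1 of 7 nop, 2 of 8 utp, 3 of 8 polr1 and 2 of 9 polr3 genes. Of 14 cytosolic or shared aminoacyl-tRNA synthetase genes 3 were called higher, against 0.940% of all genes.

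The genes whose symbols end in ars1 are the cytosolic aminoacyl-tRNA synthetases and those shared with mitochondria. Of these 14 genes 10 rose and none fell (0), led by iars1 (1.30) and yars1 (1.09), with a median of 0.74. Of 15 genes ending in ars2, the mitochondrial synthetases, 3 rose and none fell (0), with a median of 0.18. Of 67 mitochondrial ribosomal protein genes 39 rose and none fell (0), with a median of 0.50 and 65 positive changes. Of 67 cytosolic ribosomal protein genes 1 rose, rps27l, and 3 fell, with a median of -0.03. Averaged over the polr1 genes, the morphant arrays lay at 0.57 to 0.71, the mutant arrays at -0.30 to -0.28 and the control arrays at -0.47 to -0.09, relative to the mean of all arrays. Against the uninjected wildtype alone the medians were 0.89 for polr1 and 0.44 for mitochondrial ribosomal proteins, and against the siblings alone 1.04 and 0.53.

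Single called genes outside the rule, chosen after their values were seen, were brf1a, a subunit of the RNA polymerase III initiation factor (2.13), taf1c, a subunit of the RNA polymerase I selectivity factor (1.63), ghrh, the growth hormone-releasing hormone gene (2.18), ucp1 (1.45), and, among the falls, the ganglion cell genes pou4f2 (-1.19) and pou4f4 (-1.24) and the carboxylesterase gene ces3 (-1.32), for which mutants changed by -1.30.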
